A study of Microhyla fissipes with 9 samples.

Results

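In whole tadpoles of the farmland frog Microhyla fissipes, 157 of 426250 unigenes were present in every control library and listed at 0 in every library of tadpoles exposed to a glyphosate-based herbicide (GBH). The members were chosen by their FPKM values (fragments per transcript length and mapped fragments). The rule asked for at least 1 FPKM in each of 3 controls, exactly 0 in all 6 exposed libraries, and an average over the 9 libraries that reaches 1 FPKM. With 6 values at 0, that last bound means an average of 3 FPKM or more over the controls. The rule reads all 9 values of a unigene, so the difference between control and exposed libraries in these 157 is a description and carries no test.

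The control group was kept in water without GBH, and the exposed groups in water with GBH at 60 mg/L or 90 mg/L. All tadpoles were of Gosner stage 30 per the labels and stayed in this water for 10 days, with 5 containers per dose and 20 tadpoles in 1000 mL of water per container. Each dose is represented by 3 libraries of whole tissue. How many tadpoles or which container went into a library is not in the labels, so p-values capture the scatter among these 9 libraries and no more, and it may be technical. In whole tissue, fewer cells of a type and less RNA per cell cannot be told apart.

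Glyphosate blocks an enzyme of aromatic amino acid synthesis that plants have and animals lack, and its commercial formulations also hold surfactants. At Gosner stage 30 a tadpole bears hind limb buds and still feeds with a larval mouth and a long larval gut. A unigene is a transcript, or cluster of transcripts, assembled from the reads without a genome. In such assemblies the parts, alleles or splice forms of 1 gene can each become a unigene, so 157 unigenes need not be 157 genes. The table pairs no unigene with a gene name, length, sequence or position, so no function can be given to a member and the labelled tissue cannot be checked against marker genes.

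The libraries summed to between 2739365 and 3005630 FPKM, and the read depth is unknown. Controls listed 223384, 213161 and 230021 unigenes above 0, and exposed libraries between 224797 and 256232. Of the exposed libraries, replicate 1 at 60 mg/L (228024) and replicate 1 at 90 mg/L (224797) fell within the range of the controls, and the other 4 lay above it. Of the unigenes averaging over 100 FPKM, 72 also had an exact 0 somewhere, so a value of 0 is called "listed at 0" and not absence. Replicate 2 of the controls, replicate 2 at 60 mg/L and replicate 3 at 90 mg/L stood apart from the other 6 libraries. Their deviations from their own dose means correlated at 0.327, 0.251 and 0.227 across unigenes, against at most 0.134 for any other pair of libraries of different dose. Without these 3, the rule on the remaining 2 controls and 4 exposed libraries gave 897 unigenes in place of 157. A rule on fewer libraries can keep more unigenes, and leaving out 3 other libraries was not tried.

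Most members were of low to moderate abundance. The control mean ranged from 3.06 to 218.4 FPKM, with a median of 6.37 FPKM and quartiles of 4.63 and 10.2 FPKM. Of the 157, 115 (73.2%) stood under 10 FPKM, 14 at 20 FPKM or more and 6 at 50 FPKM or more. Together the members held 0.0706%, 0.0420% and 0.0775% of the summed FPKM of control replicates 1, 2 and 3. The 3 most abundant members made up 23.5% of the members' summed control FPKM and the 8 most abundant 37.1%.

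Cluster-47276.169348 was the most abundant member, at 333.66, 74.81 and 246.72 FPKM in control replicates 1, 2 and 3. Cluster-47276.170334 stood at 196.46, 71.81 and 67.91 FPKM in the same order. Cluster-47276.172728 stood at 166.83, 17.63 and 124.73 FPKM. In the first and the last of these, control replicate 2 was several times lower than the other 2 controls. Cluster-47276.170334 was high in replicate 1 and alike in replicates 2 and 3.

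The next 4 by level showed the same low control replicate 2. Cluster-47276.172982 had 98.25, 3.91 and 108.92 FPKM in control replicates 1, 2 and 3, the widest range among them. Cluster-47276.167934 had 70.3, 9.23 and 78.95 FPKM, and Cluster-47276.167477 had 55.95, 14.86 and 82.77 FPKM. Cluster-47276.166829 had 54.99, 10 and 75.32 FPKM. Cluster-47276.214269, the eighth by level, had closer values of 31.04, 20.23 and 34.9 FPKM. Control replicate 2 was thus the lowest control in 7 of the 8 most abundant members.

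Control replicate 2 was the lowest control in 78 of the 157 members (49.7%). Among all 48618 unigenes with at least 1 FPKM in each control and a control mean no lower than the lowest of a member (3.06 FPKM), the share was 45.9%. These include the members and have no upper bound on level. The lowest control was replicate 2 in 45.5% of the 4543 unigenes with a control mean of 50 FPKM or more. Control replicate 3 was the highest control in 52.2% of members and in 34.4% of the 48618 unigenes. Controls lay within 2-fold of each other in 55 members and more than 5-fold apart in 19.

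**Figure D1:**
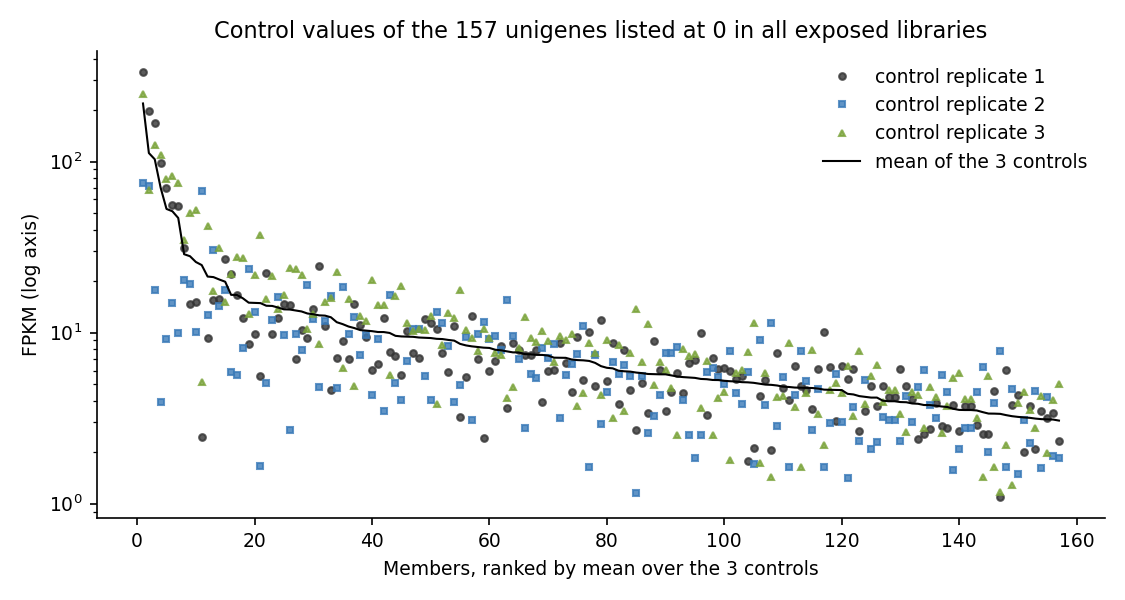
FPKM (log axis) of each of the 157 members in the 3 controls, with members ranked by their control mean (black line). The control mean falls from 218.4 to 3.06 FPKM, and control replicate 2 (squares) lies lowest in 7 of the 8 members at the left.

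Variation among the controls was set beside that of the 48618 unigenes, which include the members and were not matched to them by level. The median coefficient of variation over the 3 controls was 43.9% in members and 40.0% in the 48618 unigenes. Cluster-45618.0 varied least, with 8.37, 7.89 and 7.36 FPKM, followed by Cluster-67478.0 with 13.72, 11.93 and 12.76 FPKM. Cluster-47276.100076 varied most, with 2.45, 66.87 and 5.11 FPKM, so that control replicate 2 set its level. In Cluster-47276.161862, with 5.54, 1.67 and 37.4 FPKM, control replicate 3 did so. Across the 157 members, Spearman's rho was 0.56 between control replicates 1 and 3, 0.40 between replicates 1 and 2, and 0.35 between replicates 2 and 3. Over the 48618 unigenes, which span a wider range of levels, these were 0.83, 0.59 and 0.55.

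At the bounds of the rule, members and other unigenes differed little. Cluster-59392.0 was the member of lowest mean, with 2.31, 1.84 and 5.03 FPKM in the controls and 1.02 FPKM over 9 libraries. Cluster-67321.0 followed with 3.38, 1.9 and 4.03 FPKM. Cluster-65769.0 lay just outside, with 2.04, 3.66 and 3.26 FPKM and a mean of 0.996 FPKM over 9 libraries, as 1 of 148 unigenes kept out by the mean alone.

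The lowest control value of a member was 1.1 FPKM, in Cluster-54507.0 (1.1, 7.78 and 1.17 FPKM). Cluster-47276.97089 came next with 2.7, 1.15 and 13.67 FPKM. Cluster-47276.111577 fell just outside with 4.42, 0.91 and 4.01 FPKM, and 1916 unigenes in all were kept out by their lowest control alone. Cluster-47276.98450, at 16.91, 15.08 and 26.15 FPKM in the controls, was kept out by 0.03 FPKM in GBH 90 mg/L replicate 1. The exposed values summed to at most 0.1 FPKM in 11 unigenes of this kind.

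The count of 157 was set beside the same rule applied to the other 83 choices of 3 of the 9 libraries. These gave 32 to 351 unigenes with a median of 76, and 4 of them exceeded the controls. All 4 held at least 2 of the 3 libraries that stood apart, and those 3 together gave the 351. The 3 libraries at 60 mg/L gave 97 unigenes and the 3 at 90 mg/L gave 89. The controls thus had rank 5 of 84 by number, and counts above theirs came from choices that mix doses.

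By level the choices differed more. The controls gave 6 unigenes with a mean of 50 FPKM or more over the 3 libraries, whereas 73 of the other 83 choices gave 0 and the remaining choices gave 1 each. The most abundant unigene of any other choice stood at 248.5 FPKM, above the 218.4 FPKM of the most abundant member. That choice held control replicates 1 and 3 with GBH 60 mg/L replicate 1. With GBH 60 mg/L replicate 3, or GBH 90 mg/L replicate 1 or 3, these 2 controls gave 173.6, 108.5 and 94.5 FPKM. With replicate 2 at 60 or 90 mg/L they gave 24.8 and 17.6 FPKM. The members held 0.0631% of the summed FPKM of their 3 libraries, against a median of 0.0217% and a highest value of 0.0879% in the other choices. The highest share belonged to the 3 libraries that stood apart. In the opposite pattern, 132 unigenes were listed at 0 in all controls and stood at 1 FPKM or more in all 6 exposed libraries. Their highest exposed mean was 49.6 FPKM, and 12 of them stood at 20 FPKM or more.

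**Figure D2:**
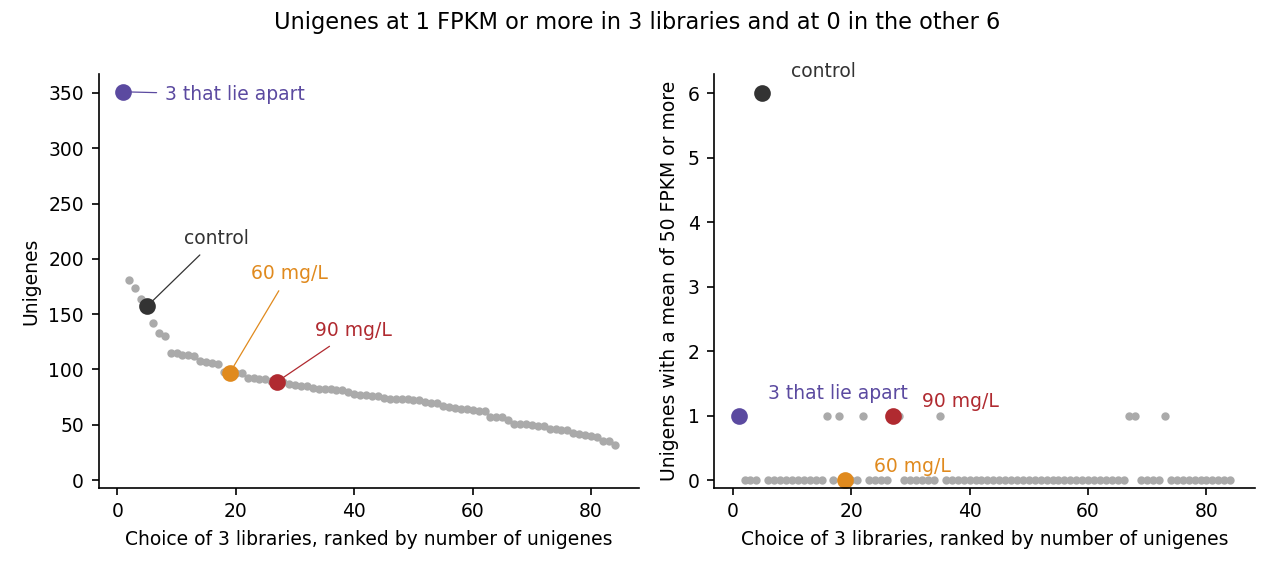
Number of unigenes at 1 FPKM or more in 3 libraries and at 0 in the other 6, for all 84 choices of 3 libraries ranked by that number (left), and those with a mean of 50 FPKM or more (right). The controls have rank 5 on the left with 157, and on the right at 6, where the other choices lie at 0 or 1.

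The number of unigenes fell steadily with the number of exposed libraries listed at 0. Of the 63110 unigenes with at least 1 FPKM in each control that also met the bound on the mean, 52651 (83.4%) were above 0 in all 6 exposed libraries. Those listed at 0 in 1, 2, 3, 4 and 5 exposed libraries numbered 5216, 2517, 1400, 775 and 394, and those listed at 0 in all 6 were the 157 members (0.249%). At 60 mg/L 498 of the 63110 were listed at 0 in all 3 libraries, and at 90 mg/L 624 were. Each count disregards the other dose and includes the 157 members.

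The share of members was lower above 20 FPKM in controls than below it, with no steady trend on either side. It was 0.389% of the 13110 unigenes at 3 to 5 FPKM, 0.418% at 5 to 10 FPKM, 0.288% at 10 to 20 FPKM and 0.126% at 20 to 50 FPKM. At 50 to 100 FPKM it was 0.143% (3 of 2104), and at 100 FPKM or more 0.123% (3 of 2439). Up to 50 FPKM, unigenes listed at 0 in 5 of the 6 exposed libraries outnumbered members in every band, for example 128 to 64 at 5 to 10 FPKM. At 50 FPKM or more there were 2 such unigenes beside 6 members.

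**Figure D3:**
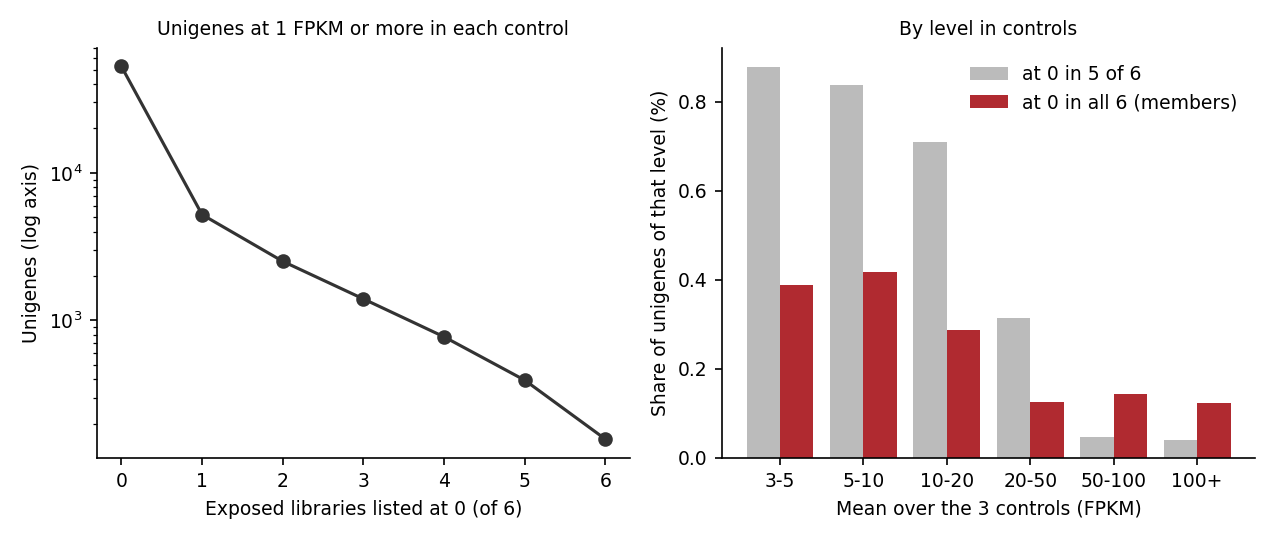
Left, the number of unigenes (log axis) among those at 1 FPKM or more in each control, by how many exposed libraries listed them at 0, which falls from 52651 at none to 157 at all 6. Right, the percentage of unigenes of each control level listed at 0 in 5 of 6 (grey) or all 6 exposed libraries (red), where grey bars exceed red ones up to 50 FPKM.

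Unigenes that missed membership by a small exposed mean were counted beside the members. Of the 4543 unigenes with a control mean of 50 FPKM or more, 6 were members and 6 more had an exposed mean above 0 but under 1% of the control mean. A further 31 stood at 1% to 5% and 19 at 5% to 10%, while 4481 (98.6%) stood at 10% or more. At 10 FPKM or more the members numbered 42, and 46 unigenes lay above 0 and under 1%. All but 1 of the 46, and all but 1 of the 6, had an exact 0 in at least 1 exposed library. In 44 of those 46, every exposed library lay below every control, against 1.39% of all tested unigenes. The choice by a low exposed mean nearly fixes this order, so nothing is read from it.

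Values that the rule did not read were obtained by choosing unigenes from 8 libraries and reading the ninth. The bound of 1 FPKM on the mean was kept, taken over the 8 libraries read. It asks a higher level of the controls read when a control is left out than when an exposed library is. Chosen without control replicate 1, 307 unigenes met that bound with 1 FPKM or more in the other 2 controls and 0 in all exposed libraries. Of these 307, 123 (40.1%) were above 0 in control replicate 1. Without control replicate 2 the figures were 137 of 363 (37.7%), and without control replicate 3 they were 125 of 313 (39.9%). The others, 184, 226 and 188 in the same order, were listed at 0 in the remaining control. Of those above 0, 122, 130 and 124 reached 1 FPKM.

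Each exposed library was left out in the same way. GBH 90 mg/L replicate 1 had the lowest share above 0, at 33 of 200 (16.5%), and GBH 60 mg/L replicate 2 the highest, at 79 of 246 (32.1%). The 3 shares for controls lay above all 6 shares for exposed libraries. However, the 2 kinds of choice read different libraries, ask for unlike levels in the controls, and are not the same quantity. In GBH 90 mg/L replicate 2, 75 of 242 were above 0 but 37 reached 1 FPKM, with a median of 0.86 FPKM among those above 0. In the other exposed libraries that median was 4.04 to 5.83 FPKM.

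The same choice was made for unigenes present at 60 mg/L or 90 mg/L and listed at 0 elsewhere. The left-out library of the group itself was above 0 in 20.8%, 28.7% and 23.0% of chosen unigenes at 60 mg/L, and in 21.2%, 32.1% and 34.0% at 90 mg/L. The controls' 37.7% to 40.1% exceeded all 6 of these. At both doses the group's own shares overlapped with those of libraries from other groups, which reached 39.5% and 40.0%. These choices share most of their libraries, so the difference between controls and doses was not tested.

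Among unigenes at 20 FPKM or more in the libraries read, 14 of 25 were above 0 in the left-out control replicate 1, 17 of 41 in replicate 2 and 11 of 20 in replicate 3. In left-out exposed libraries they were 2 to 6 of 16 to 20.

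**Figure D4:**
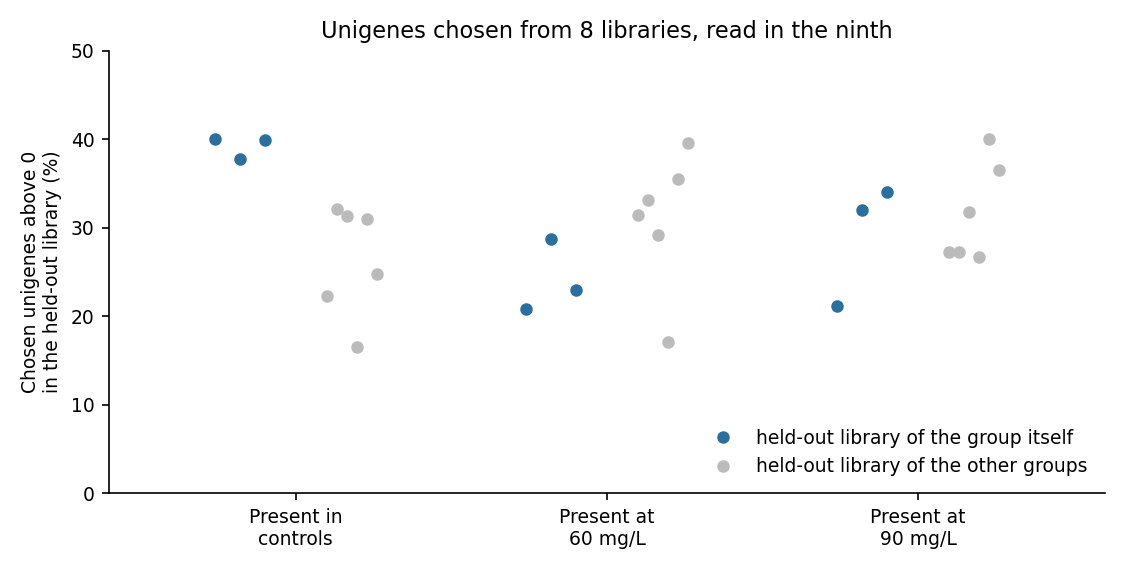
Percentage of unigenes above 0 in a library that was left out when they were chosen, for unigenes present in the controls, at 60 mg/L or at 90 mg/L and listed at 0 elsewhere (1 point per left-out library). The 3 blue points for controls, 37.7% to 40.1%, lie above all 6 grey points beside them, and at 60 and 90 mg/L blue and grey points overlap.

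Limma was run on log2(FPKM + 1) of the 147577 unigenes that average 1 FPKM or more, with a mean for each dose. Of the 157 members, 71 had an adjusted p under 0.05 at 60 mg/L and 78 at 90 mg/L, against 0.148% and 0.173% of all tested unigenes called lower. The rule used these contrasts, so nothing is read from the counts. The exposed values of members hold no spread, and their p-values may be too small. Under the replicate block, in which libraries of equal number are paired, limma called 0 members at 60 mg/L (157 at an unadjusted p under 0.05) and 3 at 90 mg/L. Of all 147577 tested unigenes, that fit called 0 lower at 60 mg/L and 7 at 90 mg/L. Without the 3 libraries that stood apart limma called 84 members at each dose, and without control replicate 2 the counts were 112 and 116. Of all tested unigenes, 624 and 693 were called lower without these 3, and 553 and 600 without control replicate 2. The fit to all 9 libraries called 219 and 255. At 90 mg/L the members called were 51 without control replicate 1, and 51 and 47 without replicates 1 and 2 of that dose. Those fits called 231, 166 and 174 of all tested unigenes lower at 90 mg/L.

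The identifier is a property that the rule did not use. It consists of a prefix and a number, and 335376 unigenes (78.7%) share the prefix Cluster-47276. Of the members, 112 (71.3%) bear it, against 94.1% of tested unigenes. The other 45 members had 45 different prefixes, and 34 of them were the only unigene under theirs. Prefixes numbered 74517 in all. How many unigenes outside Cluster-47276 stand alone under theirs was not counted, so nothing about the members is read from this. Members rarely followed each other by number: Cluster-47276.64945 (7.66, 16.52 and 5.68 FPKM in the controls) and Cluster-47276.64949 (2.08, 4.58 and 2.77 FPKM) were the only pair within 5. Both were highest in control replicate 2.

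All 6 members of 50 FPKM or more had numbers between 160000 and 180000 under this prefix. That window, chosen after the values were seen, also held 57.8% of the 4692 tested unigenes of that level and prefix, so high unigenes in general gather there.

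Unigenes close to a member by number, but not members themselves, were then examined for the same change. Within a distance of 5 there were 574 tested neighbours, next to 115 of the members. In 7 of them (1.22%) expression fell at both doses (limma, adjusted p under 0.05 over all unigenes), against 0.133% of all tested unigenes. The 196 unigenes behind this 0.133% include 71 members, whereas neighbours exclude members. Among the neighbours, 7 fell at 60 mg/L and 9 fell at 90 mg/L (42 and 44 at an unadjusted p under 0.05). At either dose 0 rose (25 and 29 at an unadjusted p under 0.05), against 0.0569% and 0.0739% of all tested unigenes. With shares this small, 0 of 574 is no result about the neighbours. Under the replicate block, where libraries of equal number count as paired between 60 and 0 mg/L, limma called 0 neighbours lower at both doses (35 at an unadjusted p under 0.05), and it also called 0 when fitted to the compared groups alone (30 at an unadjusted p under 0.05). In both fits 0 of all tested unigenes were called lower at both doses, so no other count of neighbours was possible. Unadjusted counts against the controls were not made over all tested unigenes. In the fit without the block, the 7 became 3 without control replicate 1, 12 without control replicate 2, 2 without control replicate 3 and 10 without the 3 libraries that stood apart. They became 4 on leaving out replicate 1 or 3 at 60 mg/L, or replicate 1 or 2 at 90 mg/L. The 196 of all tested unigenes became 194, 507 and 252 without control replicates 1, 2 and 3, and 559 without the 3 libraries. They became 158 and 162 without replicate 1 or 3 at 60 mg/L, and 141 and 145 without replicate 1 or 2 at 90 mg/L.

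Every exposed library lay below every control in 31 of the 574 neighbours (5.40%), against 1.39% of all tested unigenes. The 2045 unigenes behind this 1.39% include all 157 members. The opposite order held in 28 neighbours (4.88%), against 4.58% of all tested unigenes. Differences at both doses were below 0, tested or not, in 182 neighbours (31.7%), against 22.3% of all tested unigenes. The neighbours' median log2 differences were 0.11 and 0.09 at the lower and higher dose, against 0.22 at both doses in all tested unigenes. Median-ratio size factors, from unigenes above 0 in every library, were 0.79 to 0.95 in controls and 1.08 to 1.16 in exposed libraries. These differences and counts come from FPKM without that scaling and hold the offset, whose cause was not tested. Immediate neighbours, at a distance of 1, lay wholly below the controls in 13 of 126 (10.3%), and unigenes within 20 in 56 of 2193 (2.55%). The difference between 90 and 60 mg/L passed the test in 0 of the 574 (20 at an unadjusted p under 0.05), against 0.044% of all tested unigenes. Neighbours were somewhat more abundant than other unigenes, with a median control mean of 3.31 against 2.54 FPKM, and the part of level in these counts was not tested.

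Cluster-47276.169351 had the largest fall among the neighbours and lies 3 numbers from the most abundant member, Cluster-47276.169348. It stood at 1147.81, 517.04 and 739.78 FPKM in the controls, at 6.78, 0 and 1.03 FPKM at 60 mg/L, and at 2.76, 0.55 and 2.35 FPKM at 90 mg/L. The lowest control lay far above the highest exposed library. On the log2(FPKM + 1) scale, where changes of low unigenes appear smaller than they are, it fell by 8.24 (SE 0.72) at 60 mg/L and by 8.14 (SE 0.72) at 90 mg/L, with adjusted p = 0.00562 and 0.00632 by limma. Under the replicate block the adjusted p at 60 mg/L was 0.0574, and without the 3 libraries that stood apart it was 0.0652 and 0.0569 at 60 and 90 mg/L.

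Cluster-47276.215217 and Cluster-47276.215216 lie next to the member Cluster-47276.215218, which stood at 5.8, 8.28 and 2.53 FPKM in the controls. Cluster-47276.215217 had control values of 27.71, 15.38 and 33.85 FPKM. In exposed libraries it was listed at 0 except for 0.94 FPKM in replicate 3 at 60 mg/L and 1.01 FPKM in replicate 2 at 90 mg/L. It fell by 4.35 at 60 mg/L and by 4.33 at 90 mg/L on the log2(FPKM + 1) scale, with adjusted p = 0.0116 and 0.0119 by limma. Leaving out control replicate 1 gave adjusted p = 0.0597 and 0.0577, and leaving out control replicate 3 gave 0.0507 and 0.0517. Under the replicate block they were 0.0765 and 0.0770. Cluster-47276.215216, described after its values were seen, had control values of 12.59, 16 and 11.71 FPKM and stood at no more than 0.18 FPKM in any exposed library.

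The surroundings of Cluster-47276.170334, also described after their values were seen, held 9 tested neighbours, 5 of them with a control mean of 50 FPKM or more. Cluster-47276.170333 stood at 188.05, 85.15 and 113.64 FPKM in the controls, at 4.67, 18.22 and 0.58 FPKM at 60 mg/L and at 1.08, 0.61 and 1.57 FPKM at 90 mg/L. Cluster-47276.170337 stood at 168.72, 83.04 and 78.95 FPKM and was listed at 0 when exposed except for 12.76 FPKM in GBH 60 mg/L replicate 2. Both fell at 90 mg/L (limma adjusted p = 0.0281 and 0.0319) and missed the threshold at 60 mg/L (0.113 and 0.0950). Cluster-47276.170336, at 670.56, 97.06 and 492.17 FPKM in the controls, reached 33.3 FPKM in replicate 2 at 60 mg/L and 24.61 FPKM in replicate 3 at 90 mg/L, with 0 listed for the remaining 4 exposed libraries. It passed at neither dose (adjusted p = 0.353 and 0.263). The 2 exposed libraries in which it was seen are among the 3 that stood apart. In the other abundant pair the exposed values overlapped those of the controls. Cluster-47276.170330 had 478.7, 364.9 and 433.23 FPKM in controls against 316.95 to 506.14 FPKM in exposed libraries, and Cluster-47276.170339 had 42.35, 77.98 and 46.19 FPKM against 43.3 to 52.01 FPKM. Their log2(FPKM + 1) differences at 60 mg/L were -0.04 and -0.23 (adjusted p = 1 and 0.882 by limma). Of the 7 tested neighbours of Cluster-47276.169348, 4 had a control mean of 50 FPKM or more, and 6 of the 7 passed the test at neither dose. Only 1 of the 7, Cluster-47276.169351, lay below every control in every exposed library. Cluster-47276.169343 lay above every control in every exposed library, with 60.71, 66.02 and 73.61 FPKM in controls against 99.67 to 125.49 FPKM. Each neighbour was counted with 1 member only. All 5 tested neighbours counted with Cluster-47276.215218 lay below every control in every exposed library, and 2 of them passed. Cluster-47276.215214 and Cluster-47276.215215 also lie within 5 of it but were counted with the member Cluster-47276.215212. Cluster-47276.215214 lay below every control in every exposed library. Cluster-47276.215215 did not, with 4.01, 5.74 and 0 FPKM in the controls and 0.98 FPKM in GBH 90 mg/L replicate 2. The table cannot tell whether such neighbours and members are parts of the same gene.

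**Figure D5:**
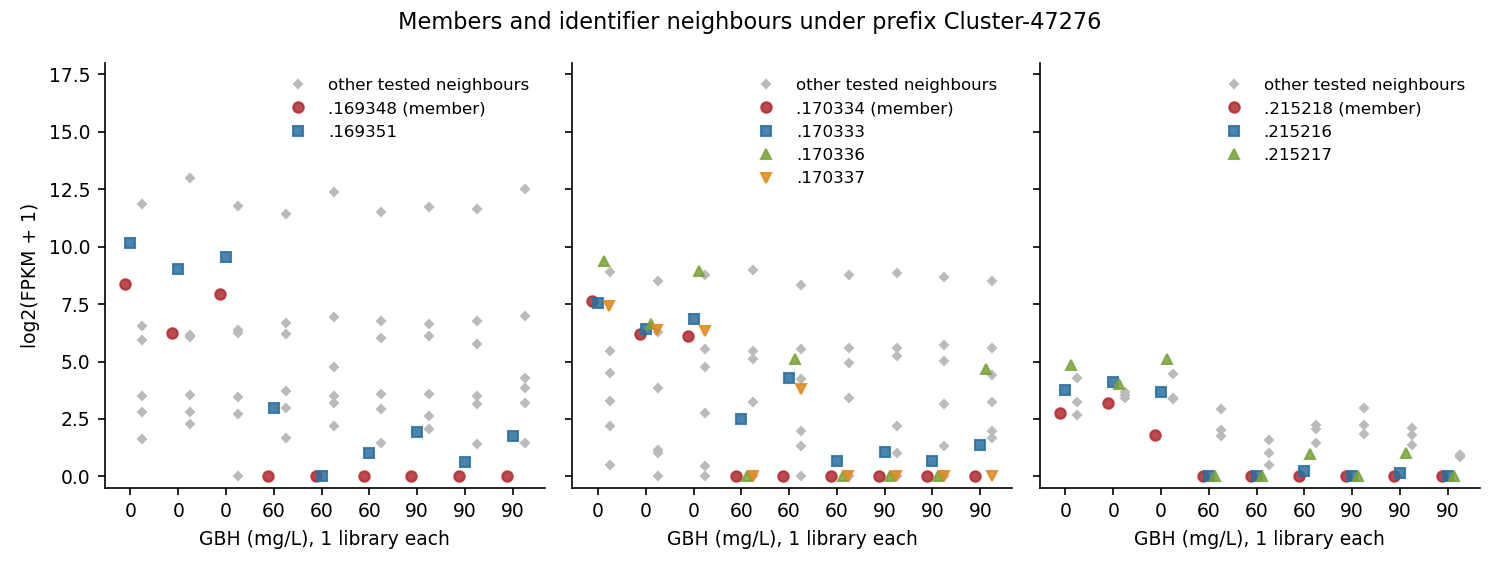
Expression as log2(FPKM + 1) in the 9 libraries (3 each at 0, 60 and 90 mg/L GBH, 1 position per library) for 3 members and their neighbours. Coloured points, labelled by number, are neighbours described beside the members, with at most 33.3 FPKM in an exposed library (Cluster-47276.170336). Grey points are the other tested neighbours within 5 that were counted with the same member. Members (red circles) lie at 0 in all exposed libraries and coloured neighbours below their own controls, whereas the upper grey points of the middle panel (Cluster-47276.170330 and Cluster-47276.170339) overlap their own control values.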

How the data were processed

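RNA of whole tadpoles was extracted with Trizol, selected by poly-T beads and sequenced as paired ends on a HiSeq 2500, per the labels' protocols. The authors deposited FPKM with 2 decimals, in a row for each unigene and a column for each library, and each of the 9 columns was matched to a sample by title. For assembler, aligner, counter and filters, the sources used here give nothing. Low or absent values depend on depth and on how reads were assigned among similar unigenes, neither of which is known.

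The members, lists and tests were chosen with earlier results of these data known. Gene lists and cell type markers could not be used, since no unigene is named. Named unigenes were the 8 most abundant members, those nearest each bound, those of smallest and largest coefficient of variation, members within 5 numbers of each other, and the neighbours with the largest changes called at both doses. Others are said to have been chosen after their values were seen.

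FPKM are not counts, so limma 3.58.1 in R 4.3.3 was fitted to log2(FPKM + 1), with 1 mean per dose over 9 libraries, a variance trend and Benjamini-Hochberg adjustment over 147577 unigenes that average 1 FPKM or more. The procedure was tried on simulated data with normal noise on the log2 scale and changes added at 90 mg/L in more abundant unigenes. The trial was judged by the size of the estimated changes alone. It did not cover unigenes listed at 0 in all exposed libraries. Same-numbered libraries of 60 and 0 mg/L deviated together (correlations of 0.104, 0.327 and 0.113, all above the bound of 0.1), and so count as paired by that bound. The meaning of a number is not in the labels, and the 0.327 is between 2 libraries that stood apart. Pairs of unlike number at these doses gave -0.219 to 0.134, the highest for control replicate 3 and GBH 60 mg/L replicate 1. These values do not single out equal numbers as pairs. Same-numbered libraries of 90 and 0 mg/L (0.106, -0.0586 and -0.173) do not all pass the bound. Counts of members were made with pandas 2.3.3 in Python 3.11.15, and plots with matplotlib 3.10.9.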

Additional observations from a re-analysis of the deposited data

How the results depend on the processing

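The number of members stayed within 1.5 times of 157 with a lowest control of 0.5 or 2 FPKM (161 and 133), with values below 0.1 FPKM taken as 0 (169) and after median-ratio scaling (172). It was 305 with no bound on the mean, 18 when the mean had to reach 5 FPKM and 897 without the 3 libraries that stood apart, where 2 controls and 4 exposed libraries remain. Leaving out each library gave 200 to 363. A rule on fewer libraries sets fewer conditions, and its bound on the mean is taken over the libraries that remain. Of the members, limma called 44 and 47 at 60 and 90 mg/L with a pseudocount of 0.1 FPKM, and 5 and 5 of 18 tested when the mean had to reach 5 FPKM. It called 109 at 60 mg/L without a variance trend. Of all tested unigenes, 123 and 148 were called lower with that pseudocount, and 51 and 73 when the mean had to reach 5 FPKM. Without a variance trend 262 were at 60 mg/L. Fitted to the compared groups alone limma called 0 members at either dose (157 at an unadjusted p under 0.05 in each), and with the replicate block 0 and 3. Of all tested unigenes, 0 and 9 were called lower with the compared groups alone, and 0 and 7 with the replicate block. Leaving out each library gave 48 to 112 and 47 to 116 members called, beside 183 to 553 and 166 to 600 of all tested unigenes called lower. Neighbours that fell at both doses numbered 7, became 1 with a pseudocount of 0.1 FPKM and 1 when the mean had to reach 5 FPKM, and were 4 at a distance of 1. They were 0 with the replicate block (35 at an unadjusted p under 0.05) and 0 for the compared groups alone (30 at an unadjusted p under 0.05), with 2 to 12 on leaving out each library. Of all tested unigenes, 0 were called lower at both doses with the replicate block and 0 for the compared groups alone. With a pseudocount of 0.1 FPKM 80 were, and 41 when the mean had to reach 5 FPKM. Leaving out each library gave 141 to 507 of them. The cause of these changes was not tested. Cluster-47276.169351 kept its direction in all 18 alternatives at each dose and missed the threshold in 3 and 2 of them, and Cluster-47276.215217 in 7 and 7. The highest adjusted p by limma was 0.138.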
